A study of Mus musculus with 6 samples.

Results

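A set of 7 genes that cells use to sense load, release ATP, couple to their neighbours or let water pass was compared between Tomato+ cells derived from injected mesenchymal stem cells (MSCs) and endogenous articular Tomato+ cells. They were chosen by name, with earlier results of these data known, as 7 of the 17854 genes in the deposited table. All 7 passed the expression filter that left 14289 genes for testing. They encode the stretch-gated channels *Piezo1* and *Piezo2*, the cation channel *Trpv4*, the pannexins *Panx1* and *Panx3*, connexin 43 (*Gja1*) and the water channel aquaporin 1 (*Aqp1*). In the MSC-derived cells 5 of them were lower, *Panx1* was higher, and *Aqp1* was not called in either direction.

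Both groups consist of Tomato+ cells, in which Cre driven by *Prrx1* regulatory sequence, active in limb mesenchyme, had turned on tdTomato from the R26 locus for good. The MSC-derived group (3 libraries) was sorted from the repaired knee cartilage of male C57BL/6 mice with osteoarthritis from cutting of the anterior cruciate ligament, after *Prrx1*-lineage MSCs sorted from inguinal white fat of *Prrx1-Cre; R26*tdTomato mice had been injected into the joint. The endogenous group (3 libraries) came from knee cartilage of mice of the same sex and age that carried *Prrx1-Cre* and the tdTomato reporter, for which no surgery or injection is described, so surgery, injection and origin of the cells cannot be told apart. All 6 libraries are labelled male, C57BL/6 and chondrocyte, and the labels give no age. *Prrx1-Cre* also labels osteoblasts, fat stromal cells and dermal cells, so Tomato is not a chondrocyte mark by itself. The study states 3 mice for each group, but the sample titles only number the libraries and name no mouse. The p-values measure the spread between these libraries, which need not be the spread between mice.

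Piezo channels open when the membrane is stretched and let calcium in, whereas TRPV4 responds to osmotic change and moderate load, and both kinds are known from articular chondrocytes. Pannexins form channels through which ATP leaves the cell, where it is read by purinergic receptors and broken down by ectoenzymes. Connexin 43 forms gap junctions between bone cells and, as hemichannels, opens to the outside, and aquaporin 1 is known from erythrocytes, endothelium and chondrocytes.

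The expected counts summed to between 22060628 and 24881796 per library, and 3 counts, the smallest level read as detected, corresponded to 0.121 to 0.136 CPM (counts scaled to a library of 1000000). This floor covers counting error only. The MSC-derived libraries lay close together (biological coefficient of variation 6.77%) and the endogenous ones did not (35.3%). Endogenous replicate 1 stood apart, with 3459 genes at 0 against 1338 and 1395 in the other two, so results that rest on it are given with and without it. Defining markers of the labelled cell type were far lower in the MSC-derived libraries, which also carried leukocyte markers. *Col2a1*, the collagen of cartilage, had 120.8 ± 4.32 TPM (a level corrected for gene length; SD, n = 3) in MSC-derived cells and 12968 ± 945 TPM in the endogenous cells, while *Ptprc*, which encodes the leukocyte antigen CD45, had 93.7 ± 3.03 and 7.12 ± 2.99 TPM. Blood cell markers were a large part of the MSC-derived libraries. There, neutrophil markers summed to 147853 to 156527 TPM, erythroid markers to 79190 to 81494 and macrophage markers to 14739 to 15039. Stromal markers summed to 2089 to 2121 TPM. In the endogenous libraries the osteoblast gene *Bglap* (35346 ± 11045 TPM), whose reads RSEM divided with near copies, exceeded *Col2a1* in TPM. In CPM, which is not corrected for length, the order was the reverse, at 5844 for *Bglap* and 33776 for *Col2a1* on average. In bulk samples, fewer cells of a type and less RNA per cell cannot be told apart.

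Of the 7 genes, 5 were called lower in the MSC-derived cells by edgeR's quasi-likelihood test at an adjusted p of 0.05, and 1 was called higher. Over all genes tested, 30.3% were called lower and 31.3% higher, so a call in either direction was common, and the call of *Panx1* was lost when any 1 of 4 libraries was left out. The median log2 fold change of all genes was 0.05. In CPM, the ranges of MSC-derived and endogenous libraries were separate for 6 of the 7 genes, 5 lower and 1 higher (*Panx1*), where 31.0% of all genes were lower and 42.3% higher without overlap. Fold changes below are log2 values of MSC-derived against endogenous cells, with their standard error (SE).

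*Piezo1* (gene ID 234839) encodes the broadly expressed stretch-gated channel. MSC-derived replicates 1, 2 and 3 had 28.5, 28.9 and 28.1 CPM, and endogenous replicates 1, 2 and 3 had 82.7, 72.7 and 74.4 CPM. Every MSC-derived library lay below every endogenous one, and the MSC-derived libraries were almost equal. The log2 fold change was -1.54 (SE 0.09, adjusted p = 4.51e-06), which put the MSC-derived cells at 37.2% of the endogenous mean CPM. Its expected counts were not whole in 6 of 6 libraries, that is, RSEM divided some reads between *Piezo1* and another gene, which was not so for the other 6 genes.

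*Piezo2* (667742), the paralogue best known from touch neurons, was the lowest of the 7 genes in the endogenous cells. It had 1.83, 1.46 and 1.81 CPM in the MSC-derived libraries and 7.12, 5.55 and 5.67 CPM in the endogenous libraries. These are 34 to 45 and 132 to 167 counts, well above the floor, and the groups did not overlap. The log2 fold change was -1.96 (SE 0.29, adjusted p = 0.000809). Within the Piezo pair, *Piezo1* made up 96.7% ± 0.311 of the summed TPM in the MSC-derived cells and 95.5% ± 0.690 in the endogenous cells (SD, n = 3; two-sided exact permutation p = 0.1, the smallest that 3 against 3 allows). *Piezo1* was thus the main Piezo transcript in all 6 libraries.

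*Trpv4* (63873) fell further than either Piezo gene. The MSC-derived libraries had 28.5, 26.3 and 23.6 CPM, against 198.8, 242.7 and 227.0 CPM in the endogenous libraries. The groups were far apart, and endogenous replicate 1 was the lowest of its group. The log2 fold change was -3.21 (SE 0.12, adjusted p = 4.89e-07), and the MSC-derived level was 11.7% of the endogenous mean CPM.

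*Gja1* (14609) was the most abundant of the 7 genes per transcript length in the endogenous cells, at 510.5 ± 112.4 TPM. In CPM, the MSC-derived libraries had 76.4, 79.8 and 74.4, and the endogenous libraries had 943.7, 782.5 and 712.2. No library of one group came near the other, and the highest endogenous value was that of replicate 1. The log2 fold change was -3.52 (SE 0.11, adjusted p = 2.76e-07), so connexin 43 transcript stood at 9.46% of the endogenous mean CPM.

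*Panx3* (208098), a pannexin of cartilage and bone, had the largest decrease of all 14289 genes tested in the edgeR fit. It had 3, 2 and 0 counts in the MSC-derived libraries and 5166, 3924 and 4803 counts in the endogenous libraries. The MSC-derived libraries were all at or below the floor of 3 counts, whereas the endogenous libraries had 220.4, 165.0 and 193.0 CPM. Summed over the libraries, 5 against 13893 counts is a ratio of 2696-fold (95% exact interval 1155 to 8304, counting error only). The fitted log2 fold change was -11.41 (SE 0.31, adjusted p = 1.32e-07) and depends on the prior count. On log2(TPM + 1) it was -7.18, and the rank was taken in the edgeR fit only.

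*Panx1* (55991), the widely expressed pannexin, was the only one of the 7 called higher. The MSC-derived libraries had 23.7, 22.1 and 27.5 CPM, and the endogenous libraries had 16.8, 8.79 and 7.07 CPM. In CPM the groups did not overlap, but endogenous replicate 1 was at 211% of the mean of the other two and lay closest to the MSC-derived cells. The log2 fold change was 1.05 (SE 0.31, adjusted p = 0.0209), a fold change of 2.08. In TPM the groups overlapped, since endogenous replicate 1, at 17.5 TPM, was within the MSC-derived range of 14.4 to 17.9 TPM. The call was lost without MSC-derived replicate 1 (adjusted p = 0.0561) or 3 (0.0742) or endogenous replicate 2 (0.0656) or 3 (0.0507), and without endogenous replicate 1 the log2 fold change was 1.44 (adjusted p = 1.53e-08).

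*Aqp1* (11826) had 369.5, 368.4 and 336.8 CPM in the MSC-derived libraries and 281.0, 404.7 and 385.1 CPM in the endogenous libraries. The CPM ranges overlapped, with endogenous replicate 1 lowest and the other two highest of the 6. The log2 fold change was -0.11 (SE 0.14, adjusted p = 0.510). Without endogenous replicate 1 it was -0.32 and was called lower (adjusted p = 5.05e-06). In TPM the groups did not overlap, with 171.7 ± 9.53 in the MSC-derived cells and 250.2 ± 31.0 in the endogenous cells (SD, n = 3), so for *Aqp1* the direction depended on the scale.

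**Figure D1:**
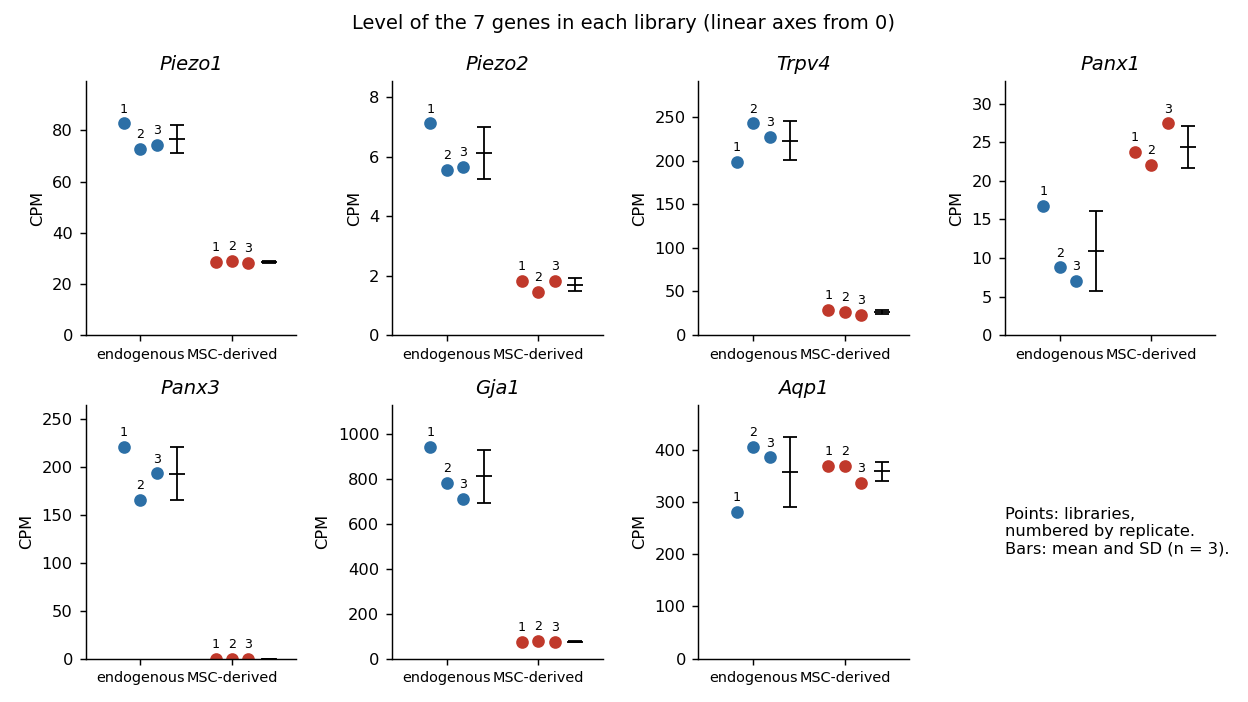
Level of each of the 7 genes in CPM (vertical axes, linear and starting at 0) in the endogenous (blue) and MSC-derived (red) libraries. Points are libraries numbered by replicate, and bars give the mean and SD (n = 3). *Piezo1*, *Piezo2*, *Trpv4*, *Gja1* and *Panx3* are lower in every MSC-derived library, *Panx1* is higher, and *Aqp1* overlaps.

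The way libraries were made comparable moved the fold changes. Relative to the TMM scaling used here, scaling by library totals moved the median of all genes by 0.12 on the log2 scale, log2(FPKM + 1) by 0.13, log2(FPKM + 0.1) by 0.14 and log2(TPM + 1) by -0.40. *Piezo1*, *Piezo2*, *Trpv4*, *Gja1* and *Panx3* kept their direction and call in all 20 alternative settings. Their smallest log2 decreases (-1.21, -0.43, -2.95, -3.34 and -6.33 in that order) all came from log2(FPKM + 1), which understates the change of low values. FPKM also summed to more in the MSC-derived (808701 to 813572) than in the endogenous libraries (504768 to 573603), which makes decreases smaller. On log2(TPM + 1) the decrease of *Piezo2* was -0.76, larger than that setting's shift, as were those of the other 4. Leaving out 1 library at a time gave -1.60 to -1.52 for *Piezo1*, -2.05 to -1.85 for *Piezo2*, -3.34 to -3.13 for *Trpv4*, -3.60 to -3.46 for *Gja1* and -12.03 to -10.89 for *Panx3*, so none of these rested on endogenous replicate 1.

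**Figure D2:**
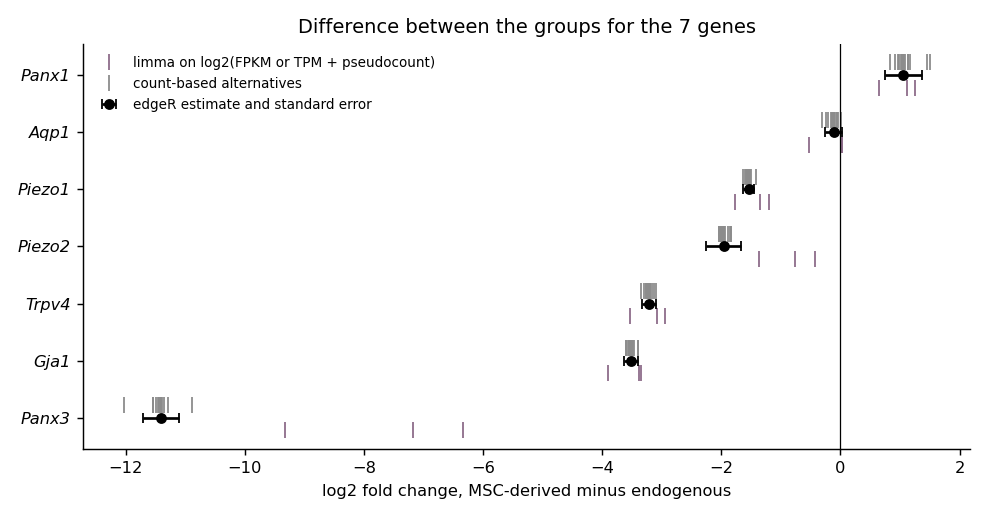
Log2 fold change of each gene, MSC-derived minus endogenous (horizontal axis), with the edgeR estimate and its standard error in black, count-based alternatives as grey ticks and limma on log2 FPKM or TPM as purple ticks below. *Panx3* lies lowest at -11.41, *Panx1* highest at 1.05, and the *Aqp1* ticks fall on both sides of 0.

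Compared per transcript length, the order of the genes differed between the groups. In the endogenous cells *Gja1* (510.5 ± 112.4 TPM) was followed by *Aqp1* (250.2 ± 31.0), *Panx3* (151.3 ± 31.9), *Trpv4* (133.2 ± 5.65), *Piezo1* (22.1 ± 1.99), *Panx1* (10.7 ± 5.91) and *Piezo2* (1.04 ± 0.251). Only *Panx3* and *Trpv4* overlapped with their neighbour in this order. In the MSC-derived cells the order was *Aqp1* (171.7 ± 9.53 TPM), *Gja1* (32.5 ± 1.24), *Panx1* (15.9 ± 1.75), *Trpv4* (10.6 ± 1.06), *Piezo1* (5.79 ± 0.136), *Piezo2* (0.197 ± 0.0231) and *Panx3* (0.0367 ± 0.0321), with no overlap between neighbours. *Panx3* thus went from the third place to the last, and *Panx1* from the sixth to the third. The TPM of *Panx1* itself overlapped between the groups (14.4 to 17.9 in MSC-derived and 6.53 to 17.5 in endogenous libraries), while *Trpv4* and *Piezo1* were lower.

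Promoter sequences show what the genes have at their starts. RefSeq (GRCm38.p6) gave a window of 250 bases before to 50 after the start for 5 of the 7 genes. The 3 printed here are the strongest decreases with a window, *Gja1* and *Trpv4*, and the increase, *Panx1*, each 5′ to 3′ on the gene's strand, with motif matches in capitals. They lie at chr10:56377050-56377349 (plus strand, *Gja1*), chr5:114658372-114658671 (minus strand, *Trpv4*) and chr9:15045429-15045728 (minus strand, *Panx1*).
Gja1: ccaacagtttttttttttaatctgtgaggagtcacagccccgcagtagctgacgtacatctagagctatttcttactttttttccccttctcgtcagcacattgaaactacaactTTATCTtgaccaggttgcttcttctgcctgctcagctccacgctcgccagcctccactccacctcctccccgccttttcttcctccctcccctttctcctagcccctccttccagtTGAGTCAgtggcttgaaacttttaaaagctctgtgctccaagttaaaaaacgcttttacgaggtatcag
Trpv4: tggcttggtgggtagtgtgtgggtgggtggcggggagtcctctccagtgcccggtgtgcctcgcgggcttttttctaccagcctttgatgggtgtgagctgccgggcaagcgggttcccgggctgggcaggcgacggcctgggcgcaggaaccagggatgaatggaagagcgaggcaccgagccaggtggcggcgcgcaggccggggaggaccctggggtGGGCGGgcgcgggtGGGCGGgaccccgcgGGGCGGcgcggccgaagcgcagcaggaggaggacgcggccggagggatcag
Panx1: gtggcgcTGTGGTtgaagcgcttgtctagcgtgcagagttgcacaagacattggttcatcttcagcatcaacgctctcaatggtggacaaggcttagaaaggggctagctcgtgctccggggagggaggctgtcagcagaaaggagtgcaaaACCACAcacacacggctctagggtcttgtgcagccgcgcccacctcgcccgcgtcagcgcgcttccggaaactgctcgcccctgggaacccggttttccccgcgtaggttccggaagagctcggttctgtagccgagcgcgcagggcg

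Both strands were searched, and no matches overlapped. The *Gja1* window held 1 match to the AP-1 letters TGANTCA, found in 7.81% of the 32851 mouse windows, and on the opposite strand 1 match to the letters AGATAA of GATA factors, found in 11.2%. In *Trpv4* the capitals mark 3 GC boxes, whose letters GGGCGG were present in 35.7% of windows. In *Panx1* they mark 2 matches to the RUNX letters TGTGGT, one on each strand, which 16.8% of windows held. The *Piezo1* window had 1 GC box and 1 TATA box (TATAAA, in 13.6% of windows), and that of *Aqp1* had 1 GC box and 1 RUNX match. The G+C content was 47.7% in *Gja1*, below the median of 52.7% over all windows, and 61.3% to 75.0% in the other 4. None of the 5 windows held the SOX letters ACAAAG, which 18.7% of all windows held. Nor did they hold the other SOX letters searched, ACAATG, found in 12.6%. The ETS letters GGAAGT, found in 23.8% of all windows, and the TEAD letters, which read CATTCC and were found in 14.7%, were also without a match.

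Of 14 tested genes in the list of Piezo and TRP channels, 12 were called lower and 2 higher, with a median log2 fold change of -2.38. Without *Piezo1*, *Piezo2* and *Trpv4*, 9 of the remaining 11 were lower and 2 higher (median -2.44). Counts in this and all later lists stand beside 30.3% of all tested genes called lower and 31.3% called higher. The largest decreases apart from the 7 genes were *Trpm3* (-4.05, adjusted p = 0.000410) and *Trpm6*, a magnesium channel (-3.13, adjusted p = 9.16e-05). *Trpm3* had 3 to 8 counts in the MSC-derived and 65 to 125 in the endogenous libraries. The increases were *Trpm2*, a channel of phagocytes opened by oxidative stress, with 31.98 ± 1.75 TPM in the MSC-derived and 1.01 ± 0.304 TPM in the endogenous cells (5.59, adjusted p = 7.23e-07), and *Trpv2*, a channel of macrophages, with 34.3 ± 2.12 and 6.33 ± 1.32 TPM (2.87, adjusted p = 2.13e-06). In the MSC-derived cells both therefore had more transcript per length than *Trpv4*.

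Among 12 other channels gated by stretch or cell volume, 5 were lower and 1 higher (median -0.89), and without endogenous replicate 1 there were 9 lower. Over all genes tested 30.3% were called lower, so lower calls were only somewhat more frequent in this list. Leaving out that library also raised the lower calls over all genes, from 4333 to 5686. *Kcnma1*, the large-conductance potassium channel, fell by 4.79 on the log2 scale (adjusted p = 8.99e-07) and *Kcnk2*, the stretch-gated potassium channel TREK-1, by 4.39 (adjusted p = 0.000468). *Scnn1a*, the alpha subunit of the epithelial sodium channel, rose by 1.48 (adjusted p = 0.00250). Of 12 partners of these channels 8 were lower and 1 higher (median -1.22). *Mdfi* had a log2 fold change of -5.00 (adjusted p = 4.54e-07), and its relative *Mdfic* one of -0.09 (adjusted p = 0.630). *Pacsin1*, of the family that binds TRPV4, had -2.72 (adjusted p = 0.00105). *Stoml2*, a stomatin relative, was the one called higher, at 0.64 (adjusted p = 0.0431), and its call was lost without any MSC-derived library or endogenous replicate 2, with RLE or upper quartile scaling, with TMM without the 50 most abundant genes and on log2(TPM + 1).

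The connexins fell as a family, with 8 of 11 tested genes lower, 0 higher (by edgeR, adjusted or at an unadjusted p of 0.05, and by DESeq2) and a median log2 fold change of -4.44. Without *Gja1*, 7 of 10 were lower (median -4.59). The summed TPM of the connexins was 35.1 to 36.6 in the MSC-derived and 492.1 to 697.9 in the endogenous libraries. *Gja1* made up 90.1% ± 1.91 of that sum in the MSC-derived cells and 88.5% ± 2.58 in the endogenous cells (SD, n = 3; two-sided exact permutation p = 0.4), so it was the main connexin transcript in both groups. *Gjb6* (connexin 30) had 0 to 1 counts in the MSC-derived and 123 to 211 in the endogenous libraries, and *Gjb5* had 0 to 2 and 36 to 47.

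Among the pannexins the main gene differed between the groups. *Panx3* made up 93.4% ± 2.08 of the summed pannexin TPM in the endogenous cells and 0.242% ± 0.211 in MSC-derived cells (SD, n = 3; two-sided exact permutation p = 0.1, the smallest possible). *Panx2* was not tested, with 0 to 4 counts in the MSC-derived and 8 to 22 in the endogenous libraries. The summed pannexin level fell from 132.1 to 203.9 TPM in the endogenous libraries to 14.5 to 17.9 TPM in the MSC-derived ones, although *Panx1* was called higher.

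**Figure D3:**
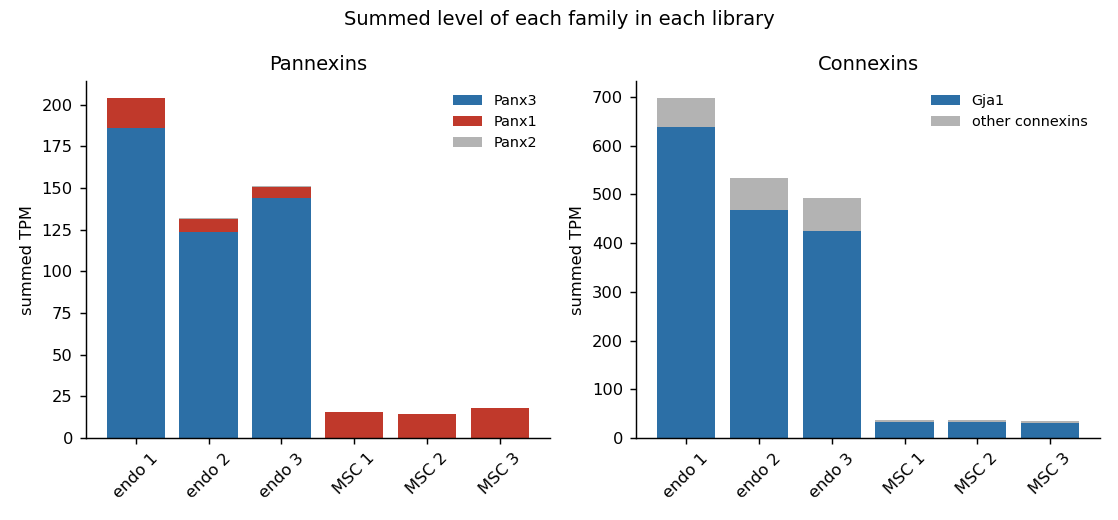
Summed TPM (vertical axes, from 0) of the pannexins (left) and connexins (right) in each library, stacked by gene. Endogenous bars are mostly *Panx3* and *Gja1*, MSC-derived pannexin bars are almost all *Panx1*, and MSC-derived connexin bars are at most 36.6 TPM.

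Of 7 tested aquaporins 3 were lower and 1 higher (median -0.11, or -1.20 without *Aqp1*). That is not far from the 30.3% of all tested genes called lower. *Aqp9*, a channel for water and glycerol, rose by 1.93 (adjusted p = 0.000105). *Aqp3* (-4.70, adjusted p = 0.000177) and *Aqp2* (-3.60, adjusted p = 0.00357) had the largest decreases. *Aqp3* had 2 to 7 counts in the MSC-derived and 99 to 122 in the endogenous libraries, and *Aqp2* had 1 to 14 and 85 to 106. *Aqp1* made up 93.2% ± 0.801 of the summed aquaporin TPM in the MSC-derived and 93.0% ± 0.0499 in the endogenous cells (SD, n = 3; two-sided exact permutation p = 0.7).

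Purinergic receptors read extracellular ATP and its products. Of 18 tested purinergic receptors 10 were higher and 4 lower, at a median of 1.79 on the log2 scale. Without endogenous replicate 1 there were 7 lower. *P2ry12*, a receptor of ADP, had 639 to 761 counts in the MSC-derived and 0 to 1 in the endogenous libraries, and *P2ry13* had 3400 to 3768 and 1 to 20. Both are known from cells of the myeloid lineage. The decreases were led by *P2rx2*, an ATP-gated channel (-5.40, SE 1.15, adjusted p = 0.00473), and *Adora1*, an adenosine receptor (-4.00, SE 0.52, adjusted p = 0.000385). *P2rx2* had 0 to 5 counts in the MSC-derived and 34 to 112 in the endogenous libraries, and *Adora1* had 3 to 11 and 103 to 135. With so few counts, the size of these decreases is uncertain.

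Of 11 tested genes for extracellular nucleotide enzymes and the ATP exporter ANK, 3 were higher and 7 lower (median -1.64). *Alpl*, tissue-nonspecific alkaline phosphatase, had 10.7 ± 0.864 TPM in the MSC-derived and 967.8 ± 30.4 TPM in the endogenous cells (-6.06, adjusted p = 2.61e-08), and is also in the list of hypertrophic chondrocyte markers. The ectonucleotidases diverged, with *Entpd3* lower (-6.56, adjusted p = 9.68e-06) and *Entpd1*, which encodes CD39 of leukocytes and endothelium, higher (3.90, adjusted p = 2.09e-06). *Ada*, adenosine deaminase, rose by 2.51 (adjusted p = 1.23e-05).

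YAP and TAZ pass mechanical signals to TEAD factors and their target genes. Of 12 tested genes in this list 11 were lower and 1 higher (median -3.17). *Ccn1*, a classical target, had 60.1 TPM in the MSC-derived and 1998.5 TPM in the endogenous cells on average (-4.62, adjusted p = 3.39e-08). *Crim1* fell from 31.8 to 1.25 TPM on average (adjusted p = 4.48e-07), and the exception was the receptor kinase *Axl*, which rose by 3.39 (adjusted p = 3.78e-08) and is also a gene of macrophages.

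**Figure D4:**
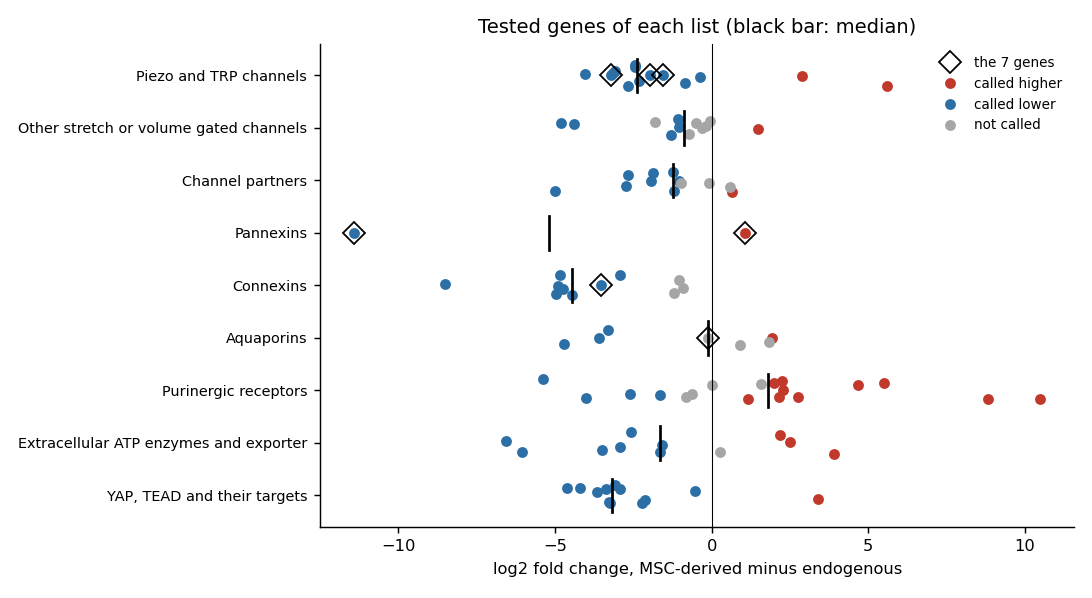
Log2 fold change (horizontal axis, MSC-derived minus endogenous) of the tested genes of the 9 lists, with genes called higher in red, called lower in blue and not called in grey. Open diamonds mark the 7 genes and black bars the median of each list. The purinergic receptors have the one list median far above 0, and that of the connexins is -4.44.

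Markers of other cell types differed between the same libraries. All 13 tested chondrocyte markers were lower in the MSC-derived cells, with a summed level of 2427 to 2502 TPM against 28955 to 32102 TPM, as were 8 of 8 hypertrophic chondrocyte markers (73.3 to 77.2 against 2501 to 2892 TPM), 8 of 9 osteoblast and osteocyte markers (1515 to 1536 against 67202 to 89327 TPM) and 8 of 11 stromal markers (2089 to 2121 against 17488 to 21931 TPM). Of the other 3 stromal markers 1 was higher and 2 were not called. These lower lists moved with *Piezo1*, *Piezo2*, *Trpv4*, *Gja1* and *Panx3*. Higher were 14 of 14 leukocyte markers (5977 to 5987 against 491.7 to 541.5 TPM), 14 of 14 macrophage markers (14739 to 15039 against 61.1 to 76.9 TPM) and 12 of 12 neutrophil markers (147853 to 156527 against 8298 to 11651 TPM). Between the groups these moved with *Panx1*, *Trpm2*, *Trpv2*, *P2ry12*, *P2ry13*, *Entpd1* and *Axl*. Among the endogenous libraries, replicate 1, which had 3459 genes at 0, had the highest *Panx1* (16.8 CPM) and the lowest macrophage and neutrophil sums (61.1 and 8298 TPM). Its leukocyte sum (511.2 TPM) lay between those of the other replicates. The part of either set of markers in these results was not tested.

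Erythroid markers were higher in 15 of 15 (79190 to 81494 against 18233 to 24609 TPM), whereas mean *Aqp1* was 358.2 and 356.9 CPM. Endogenous replicate 1 had the lowest erythroid sum as well as the lowest *Aqp1* CPM. It also had the lowest osteoblast, macrophage, neutrophil and megakaryocyte sums of its group. Its chondrocyte, hypertrophic chondrocyte and stromal sums were the highest of that group. Endothelial markers were higher in 7 and lower in 1 of 16, at summed levels of 84.3 to 91.1 against 82.5 to 102.0 TPM, with 11 higher without endogenous replicate 1 or with voom quality weights, 3 higher and 2 lower on log2(TPM + 1) and 1 higher at a threshold of 0.001. Megakaryocyte markers were higher in 1 and lower in 3 of 8 (170.5 to 179.4 against 36.9 to 58.7 TPM), with 1 lower without MSC-derived replicate 1 or 3 or endogenous replicate 3, with the replicate number as a block or at a threshold of 0.001. Skeletal muscle markers were called in 0 of 3 by edgeR (0 at an unadjusted p of 0.05; 1 higher and 1 lower by DESeq2), at 2.38 to 3.63 against 4.12 to 4.43 TPM. Of the defining markers only *Ihh*, in MSC-derived replicate 2, and *Acta1*, in endogenous replicate 1, were at 0. Their part in the *Aqp1* values was not tested.

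Genes with the most similar profile were found as the smallest distance between the 6 log2(TPM + 1) values, a description over libraries that share the group difference. For *Panx3* the nearest was the osteocyte gene *Dmp1* at a distance of 1.11, with 0.477 and 179.9 TPM in MSC-derived and endogenous cells, followed by *Epyc* and *Sfrp5*. *Gja1* was nearest to *Tpm1* (0.262), *Mmp13*, a collagenase of hypertrophic chondrocytes, and *Col5a2*. *Trpv4* was nearest to *Angptl7* (0.251), *Smtn* and *Serpina3n*. The nearest to *Piezo1* were *Abhd2* (0.141), *Fchsd2* and *Atn1*, and to *Piezo2* they were *Tfap2a* (0.159), *Ppm1e* and *Hykk*. *Panx1* had *Osbpl11* (0.377), *Aurka* and *Suv39h1*, and *Aqp1* had *Ctsl* (0.296), *Calr* and *Pgam1*.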

How the data were processed

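Bulk RNA sequencing of 3 MSC-derived and 3 endogenous libraries was analysed. The authors' pipeline ran SOAPnuke on the reads, HISAT2 and Bowtie2 for alignment and RSEM for quantification. The submitters' processing notes name Bowtie2 2.2.5, RSEM 1.2.12 and mm9, so no coordinates other than RefSeq's GRCm38.p6 windows are given. The authors deposited expected counts without normalization, FPKM, and TPM, which sums to 1000000 per library. Columns were mapped by name (18 used), and 6 columns of normalized counts and the group averages were not used.

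Rounding to whole numbers altered 20.6% of the expected counts, which were tested over 14289 genes with edgeR 4.0.16 in R 4.3.3 (TMM, filterByExpr, glmQLFit and glmQLFTest, no block, Benjamini-Hochberg adjustment, threshold 0.05). The procedure was checked on simulated counts, where it fell just short of a first limit on the recovery of large changes, and that limit was then lowered, so real changes can go uncalled. The authors' tool, DESeq2 1.42.0, and other scalings, filters, dispersion fits, limma 3.58.1 on log2 FPKM or TPM, a threshold of 0.001, a replicate block and each library left out were alternatives. Shares of summed TPM were compared with exact permutation tests. The 7 genes, 9 family lists and 11 marker lists were chosen with earlier results of these data known. From each family list, besides the 7 genes, up to 2 genes with the highest and 2 with the lowest fold change were named, among called genes with a mean of at least 1 TPM in one group. *Mdfic* and *Panx2* were added after their values were seen. Figures were drawn with matplotlib 3.10.9.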

Additional observations from a re-analysis of the deposited data

How the results depend on the processing

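*Piezo1*, *Piezo2*, *Trpv4*, *Gja1* and *Panx3* were lower in each of the 20 alternative settings. For *Panx1*, log2(TPM + 1) gave 0.64 (adjusted p = 0.120 with limma), leaving out 1 library gave 0.82 to 1.44, and its call at 1.05 was lost at an adjusted p of 0.001. For *Aqp1* the sign turned with library totals (0.00460) and log2(FPKM + 1) and log2(FPKM + 0.1) (0.0238 and 0.0240), leaving out 1 library gave -0.32 to -0.046, and it was called lower with voom quality weights (-0.24, adjusted p = 0.000189), without endogenous replicate 1 (-0.32) and on log2(TPM + 1) (-0.53, adjusted p = 0.00311). The difference in *Aqp1*'s share was -0.924 percentage points on expected counts and -0.136 to 0.637 with 1 library left out. Of the 7 genes, 0 were higher on log2(TPM + 1) or at 0.001, with 0 to 1 higher and 5 to 6 lower when 1 library was left out. Over all genes, a threshold of 0.001 called 2134 higher and 2380 lower, and leaving out 1 library 3672 to 5563 and 3761 to 5686. On log2(TPM + 1), 34.4% of the calls were higher (3124 against 5962 lower), compared with 50.8% here.

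At a threshold of 0.001 the genes called were 7 lower Piezo and TRP channels, 0 higher stretch or volume channels, 0 higher partners, 0 higher pannexins, 1 lower aquaporin, and 5 higher and 2 lower purinergic receptors. Higher partners were 0 with RLE, upper quartile, TMM without the 50 most abundant genes and log2(TPM + 1), 2 with voom and both FPKM settings, and 0 to 1 with 1 library left out. Pannexins had 0 higher on log2(TPM + 1), 2 lower with DESeq2, and 0 to 1 higher and 1 to 2 lower with 1 library left out. Aquaporins had 2 higher in both FPKM settings. Stretch or volume channels had 8 lower with voom and 5 to 9 with 1 library left out, and purinergic receptors 4 to 7 lower, the most in each case without endogenous replicate 1. The causes were not tested.

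Same-numbered libraries come from different mice, and the correlations of their deviations were 0.0129, 0.00221 and 0.0178, so the numbers do not pair them. With the replicate number as a block 4103 genes were higher and 3920 lower, the log2 fold changes were -1.54 (*Piezo1*), -1.96 (*Piezo2*), -3.21 (*Trpv4*), 1.14 (*Panx1*), -11.41 (*Panx3*), -3.51 (*Gja1*) and -0.10 (*Aqp1*), and no call of the 7 genes changed. Depth limits *Panx3* in the MSC-derived cells, which was at or below 3 counts in each library.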
